A study of Arabidopsis thaliana with 16 samples.

Results

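Protein protected sites (PPSs) that cover stop codons of nuclear mRNAs were examined in Arabidopsis thaliana rosette leaves. A PPS is a stretch of RNA that was enriched when an RNase acted with proteins still in place over digestion of protein-free RNA, and is read as a site bound by an RNA binding protein (RBP). A PPS was counted as a stop codon PPS when it covered the last base of a coding sequence (CDS) and the base after it in a transcript of the mRNA structure table of control-treated tissue, on either strand. Of 71928 distinct PPSs in 4 lists, with identical start and end counted once, 986 met this rule. They covered 760 of the 10859 stop codons of the table, in 720 of 10003 genes. The transcripts of the table have a 3′ untranslated region (3′ UTR) of at least 140 nt, a minimum that the authors set.

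The plants were 4-week-old UBQ10:NTF/ACT2p:BirA Columbia-0 plants, in which a ubiquitin promoter drives a nuclear envelope fusion protein that a biotin ligase tags. Nuclei were therefore collected from all leaf cell types together by INTACT, and the study saw an endoplasmic reticulum marker in them. Control-treated plants received normal watering, and salt-treated plants received NaCl that was raised to 150 mM and held there for 10 days. Each condition had 2 biological replicates with 4 libraries each, 16 in all. RNA was digested with proteins in place and without them, both with an RNase specific to single-stranded RNA (ssRNase) and with one specific to double-stranded RNA (dsRNase), and the authors merged the calls of each replicate into 1 PPS list. The leaf genes RBCS1A, CAB1, CA1 and RCA had transcripts in the table, whereas the guard cell genes MYB60 and FMA and the seed genes CRA1 and SESA1 had none. The authors kept only mRNAs with enough reads and with UTRs of a minimum length. A gene that is not in the table may thus still have had RNA in these nuclei.

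A stop codon marks the end of the CDS. In the cytoplasm, eRF1 recognizes UAA, UAG and UGA in the ribosome, and eRF3 assists the release of the protein. In plants, a stop codon followed by an exon junction or by a long 3′ UTR can send the mRNA to nonsense-mediated decay, in which UPF1 acts. Nuclear mRNA has in the main not been translated, so the proteins at its stop codons can include splicing factors, exon junction proteins, poly(A) factors and readers of m6A, a methyl mark known to be frequent near stop codons.

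The sequences of 10 covered stop codons are given because the values below turn on them. DTX35, RD26 and ERD10 were covered in all 4 lists, AT2G43018 and AT3G59052 are short coding sequences that lie ahead of those of PAO2 and PAO3 and were also covered in all 4, the stop codons shown for IAA2 and ERF11 were covered in control-treated lists alone, those shown for CAT3 and GRP-3 in salt-treated lists alone, and CAB1 is a leaf marker. Each is 30 nt of the transcript strand, written 5′ to 3′ as DNA from the TAIR10.1 assembly of RefSeq, with the stop codon in capitals.
DTX35, chr4:13076941-13076970, − strand: aaggatatacttgcgTGAttgatgtttttt
RD26, chr4:13707916-13707945, − strand: ttcgagtttaggcaaTGAgagagatgtgaa
ERD10, chr1:7088223-7088252, − strand: gaaaaagtgtctgatTAAgagaaaaatatg
AT2G43018, chr2:17891917-17891946, + strand: aatcgtttgatcaatTGAaaaaaaaatcat
AT3G59052, chr3:21827165-21827194, − strand: tactccgttcattgtTGAatcatggagtcc
IAA2, chr3:8181057-8181086, − strand: ctagactcttccttaTGAtccagagaagct
ERF11, chr1:9956339-9956368, − strand: cctccacctgagaacTGAttaagatttaat
CAT3, chr1:7145790-7145819, + strand: ctgccatgccttctcTAAatcttcaaatcc
GRP-3, chr2:2026865-2026894, + strand: actcagcccggtcacTAAaacaatatatta
CAB1, chr1:10478857-10478886, + strand: tttgttcccggaaagTGAgccaagttttat
Among the 5 that were covered in all 4 lists, ERD10 ends in UAA and the others in UGA. The base after the stop codon was A at 38.7%, U at 25.1%, G at 24.2% and C at 12.0% of all covered stop codons, and at 38.3%, 28.5%, 21.9% and 11.4% of those not covered.

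The strands and calls of the lists limit how they can be compared. A PPS lay on the strand of the transcript whose stop codon it covered in 35.7% of stop codon PPSs in control-treated replicate 1, 69.3% in control-treated replicate 2, 83.0% in salt-treated replicate 1 and 54.8% in salt-treated replicate 2. Of 760 covered stop codons, 27 (3.55%) lay inside a RefSeq gene of the other strand, beside 323 of 10099 (3.20%) that were not covered. Both control-treated lists covered 229 stop codons, 194 of them by a PPS with the same start, end and score in both lists, always on the same strand. Both salt-treated lists covered 205, and for 203 of them the call was the same, always on opposite strands. Of 343 stop codons covered in both conditions, 232 (67.6%) had the same call in a list of each. Coverage in several lists is therefore not an independent repeat of a measurement. Whether the deposited lists were made from partly shared or merged data, or with exchanged strands, was not tested, and values given per list or per condition below carry this doubt. PPSs were counted on either strand for this reason.

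**Figure D1:**
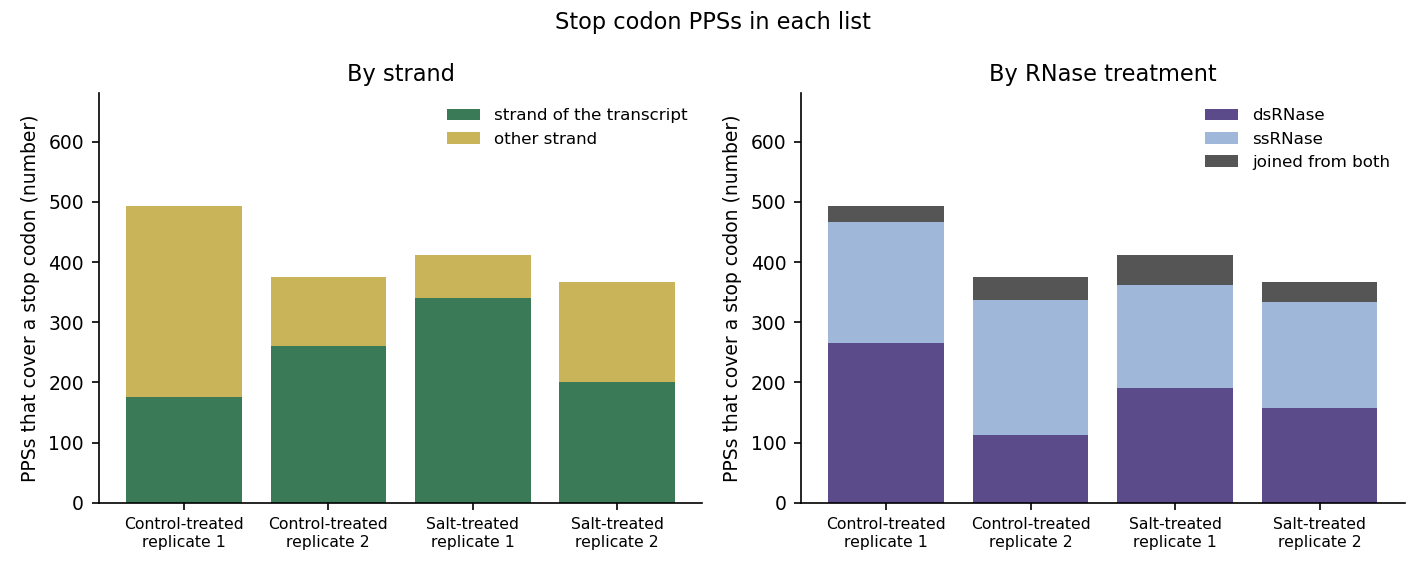
Number of PPSs that cover a stop codon in each of the 4 lists (y axis), divided by strand (left) and by the RNase treatment in which they were called (right). Control-treated replicate 1 had the most, 493, and the fewest on the strand of the transcript, 176.

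The number of stop codons covered did not separate salt-treated from control-treated tissue. The control-treated lists held 493 (replicate 1) and 375 (replicate 2) stop codon PPSs, and the salt-treated lists 411 and 367. They covered 454 and 351 stop codons under control treatment, and 389 and 343 under salt treatment. The ranges of the conditions overlapped, and the means differed by less than the control-treated replicates did. Salt-treated over control-treated, the log2 ratio of these means was −0.14. This ratio counts stop codons with a PPS and is not a measure of RNA amount. In nuclei of a whole leaf, fewer cells of a type and less RNA per cell cannot be told apart. Without control-treated replicate 1 the log2 ratio was 0.060, and with PPSs on the strand of the transcript alone it was 0.30. No test was run, since the smallest two-sided p of an exact permutation test on 2 lists per condition is 0.333.

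Stop codon PPSs made up 1.37% of the 71760 distinct PPSs on nuclear chromosomes (95% Wilson interval 1.29 to 1.46, which covers counting error only). This share was 1.39% and 1.34% in the control-treated lists (replicates 1 and 2, an order kept from here on) and 1.27% and 1.40% in the salt-treated lists. Start codons were covered more often. PPSs over start codons numbered 1637, or 2.28% of distinct nuclear PPSs, and 1229 of 10663 start codons (11.5%, interval 10.9 to 12.1) were covered in at least 1 list, whereas 7.00% of stop codons were (interval 6.53 to 7.49). In each of the 4 lists, PPSs over start codons outnumbered those over stop codons, by 798 to 493, 667 to 375, 711 to 411 and 632 to 367.

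Stop codon PPSs were long for a PPS. Their length ran from 10 to 333 nt with a median of 69 nt, beside 55 nt for all distinct nuclear PPSs and 62 nt for those over start codons. A longer site has more chance of covering any given base, and the part of this in the difference was not tested. The median was 70, 69, 63 and 68 nt in the 4 lists, control-treated first, and that of all nuclear PPSs was 56, 55, 53 and 56 nt. Their enrichment scores lay a little above the middle of each list. The median stop codon PPS had a score at or above that of 56.9% to 57.1% of the PPSs of its list.

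Fewer stop codon PPSs than other PPSs came from dsRNase libraries alone. Their share was 53.8% and 30.1% in the control-treated lists and 46.2% and 42.8% in the salt-treated lists, beside 58.5%, 41.8%, 56.4% and 52.0% of all nuclear PPSs of the same lists. The share was lower in all 4 lists. Stop codon PPSs of dsRNase alone had median lengths of 64, 58, 52 and 58 nt in the 4 lists. Those of ssRNase alone were longer, at 71, 71, 76 and 76 nt. A longer site has more chance of covering a stop codon, and the part of length in the lower share was not tested. PPSs joined from calls of both RNases, which are longer, numbered 26, 38, 49 and 33 in the 4 lists. They were more frequent in each than among all nuclear PPSs, with shares from 5.27% to 11.9% beside 4.11% to 7.62%.

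More bases of a stop codon PPS lay before the CDS end than after it. Bases were counted along the genome, so those in introns are included. The 986 PPSs made 1010 pairs with stop codons, because 23 of them covered more than 1 stop codon. The median pair had 39 nt before the end of the CDS and 23 nt after it, and the median share of bases before the CDS end was 62.1%. This median was 62.1% and 61.9% in the control-treated lists and 61.8% and 68.4% in the salt-treated lists. In 615 pairs (60.9%, interval 57.8 to 63.9) more bases lay before than after, and in 989 pairs (97.9%) the whole stop codon was inside the PPS. At the edge of the rule, 30 pairs had 1 nt on a side, and 28 further PPSs ended exactly at the CDS end and were not counted.

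**Figure D2:**
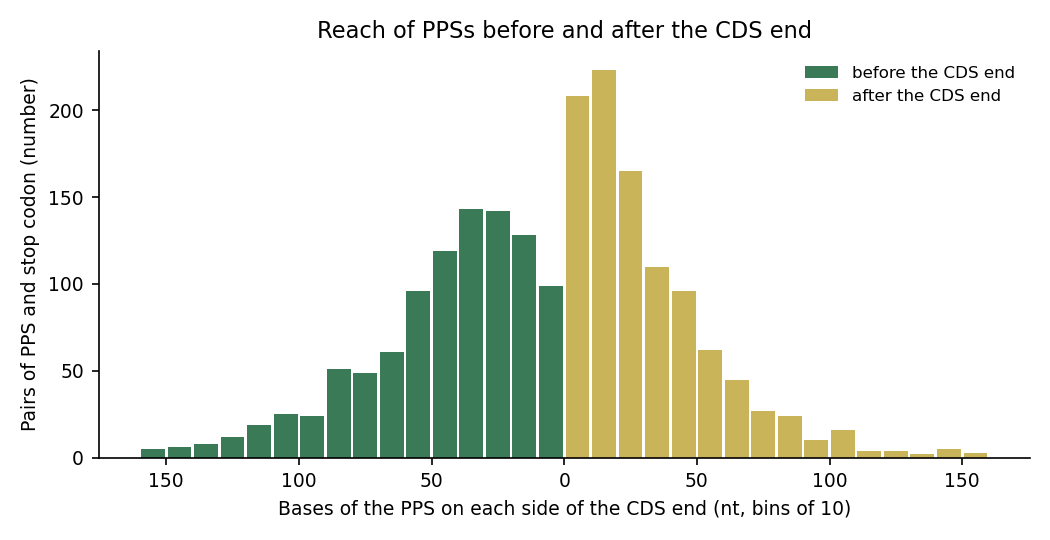
Number of pairs of a PPS and a stop codon (y axis) by how far the PPS reached before (left, green) and after (right, yellow) the CDS end, in bins of 10 nt up to 160 nt. Reach after the CDS end was most often 10 to 20 nt (223 pairs), and before it 30 to 40 nt (143 pairs). The 29 sides of 160 nt or more are not drawn.

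The same asymmetry was present along the transcripts. Among 10830 stop codons with at least 110 nt of CDS, the share with a PPS of either strand fell from the CDS into the 3′ UTR with no peak at the stop codon. In control-treated replicate 1, a PPS lay over 9.05% of the transcripts 100 nt before the CDS end, 4.24% at the last CDS base and 2.75% at 50 nt after it. The corresponding shares were 7.09%, 3.32% and 2.19% in control-treated replicate 2. They were 8.34%, 3.64% and 2.53% in salt-treated replicate 1 and 7.01%, 3.20% and 1.83% in salt-treated replicate 2. From 100 nt before to the last base of the CDS, the share fell by a factor of 2.13, 2.13, 2.29 and 2.19 in the 4 lists.

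**Figure D3:**
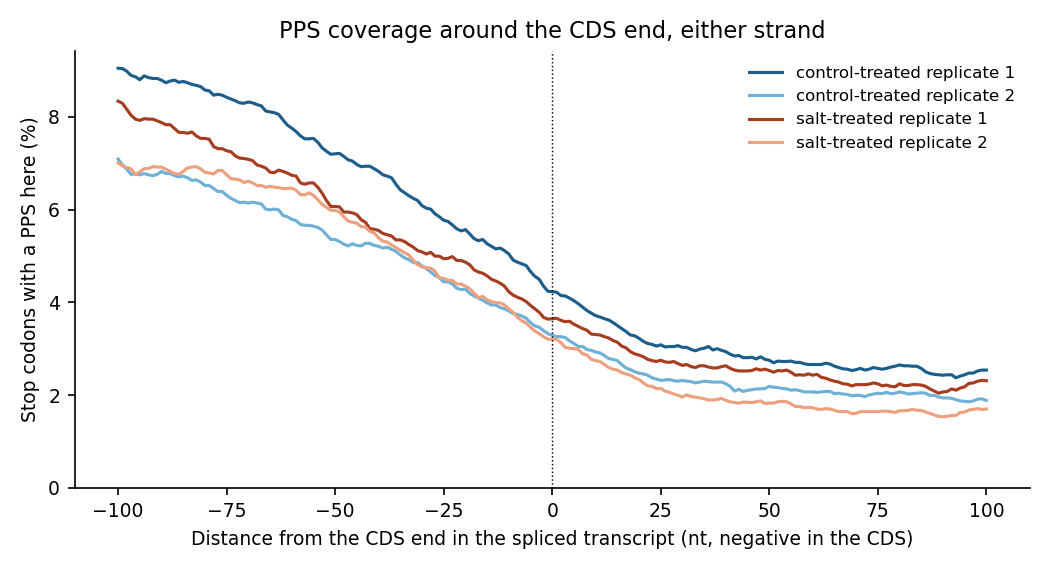
Share of 10830 stop codons with a PPS of either strand at each position from 100 nt before to 100 nt after the CDS end (x axis, nt in the spliced transcript), 1 line per list. All 4 lines fall from 7.01% or more at the left to 2.54% or less at the right and show no peak at the CDS end.

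Covered stop codons were more often UGA and less often UAA than the others. UGA made up 393 of 760 covered stop codons (51.7%, interval 48.2 to 55.2) and 46.0% of the 10099 not covered. UAA made up 26.6% and 34.6%, and UAG 21.7% and 19.5%. Counted the other way, 7.81% of UGA, 7.75% of UAG and 5.47% of UAA stop codons were covered in at least 1 list. UAA had the lowest share in each list, at 3.11% and 2.60% in the control-treated lists and 2.73% and 2.49% in the salt-treated lists, beside 4.75%, 3.58%, 4.03% and 3.46% for UGA. UAG lay close to UGA, at 4.69%, 3.52%, 3.99% and 3.62%, and above it in salt-treated replicate 2. Among the 68 stop codons covered in all 4 lists, 41 were UGA (60.3%, interval 48.4 to 71.1). UGA was not more frequent where both RNases gave a PPS, at 45.8% of 212 such stop codons (interval 39.2 to 52.5). It made up 56.1% of the 237 covered by dsRNase PPSs alone and 52.4% of the 311 covered by ssRNase PPSs alone. For PPSs joined from calls of both RNases, the share of UGA was 34.6%, 27.3%, 37.3% and 47.1% in the 4 lists, on 26 to 51 stop codons each.

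Covered stop codons also differed from those not covered in other features. The 100 nt around the CDS end had a median GC content of 42% at covered stop codons and 40% at those not covered. The 3′ UTR was longer, with a median of 287 nt and 238 nt. Covered stop codons also lay in transcripts with more of their bases scored, a measure that rises with read coverage, with a median of 96.5% beside 89.7%. The share of stop codons covered rose with this measure from 1.06% in the lowest of 5 equal classes of stop codons to 17.8% in the highest, and in each of the 5 classes UGA was more frequent among the covered than among the others. How far read coverage sets which stop codons are covered was not tested.

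The letters GGAC, which the m6A consensus can contain, were in the 100 nt window of 184 of 760 covered stop codons (24.2%) and in 16.5% of all 10859 windows. Windows were searched on the transcript strand only. GAAGAA, a purine-rich motif of the kind that SR splicing factors bind in animals and plants, was in 18.3% of covered and 15.7% of all windows. TGTA, the core of Pumilio sites, was in 35.4% and 35.3%. AATAAA, the poly(A) signal of animals that plants also use, was in 3.68% and 5.09%, and TTTTTT was in 7.11% and 9.34%. A match is a string of letters and not a site. Covered windows had the higher GC content and lay in transcripts with more bases scored, and the part of either in these shares was not tested.

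Stop codons followed by an intron in the 3′ UTR were covered more often than others. Such stop codons numbered 897, of which 105 were covered (11.7%, interval 9.76 to 14.0), and of the 9962 without such an intron 655 were (6.57%, interval 6.10 to 7.08). The share was higher in every list, at 6.69%, 5.57%, 6.80% and 5.80% beside 3.96%, 3.02%, 3.29% and 2.92%, control-treated lists first. It was also higher in 4 of the 5 classes of bases scored, for example 24.1% beside 17.0% in the highest class, and was 0.654% beside 1.09% in the lowest, where 1 stop codon with such an intron was covered. With 1 transcript per gene, 11.5% of covered and 6.15% of all stop codons had an intron in the 3′ UTR.

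The exon junction was in many of these transcripts 50 nt or more after the stop codon, a distance known to favour nonsense-mediated decay. Of 505 stop codons of this kind, 56 were covered (11.1%, interval 8.64 to 14.1), beside 6.80% of the other 10354. Stop codons of genes with several stop codons were covered in 10.3% of 1658, beside 6.41% of 9201. In 130 genes with a covered stop codon the table held more than 1, and in 100 of them only some were covered. Stop codons inside an intron of another isoform were covered in 8.45% of 521 (interval 6.35 to 11.1), an interval that includes the 6.93% of the others.

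Stop codons under dsRNase PPSs had an intron in the 3′ UTR more often than those under ssRNase PPSs. Of 237 stop codons covered by dsRNase PPSs alone, 48 (20.3%, interval 15.6 to 25.8) had an intron in the 3′ UTR, and of 311 covered by ssRNase PPSs alone, 25 did (8.04%, interval 5.50 to 11.6). Of 212 covered by PPSs of both RNases, 32 did (15.1%, interval 10.9 to 20.5). Within the lists the shares were 15.8% for dsRNase and 8.56% for ssRNase in control-treated replicate 1, and 20.5% and 9.01% in control-treated replicate 2. They were 18.8% and 12.8% in salt-treated replicate 1, and 20.9% and 11.5% in salt-treated replicate 2. The share was thus higher for dsRNase than for ssRNase in all 4 lists, which share many calls. PPSs joined from calls of both RNases, over 26 to 51 stop codons a list, had shares of 23.1%, 21.2%, 17.6% and 14.7%, above those of dsRNase in the control-treated lists and below them in the salt-treated lists. Of the 1010 pairs, 138 (13.7%) were PPSs that reached into an intron of the transcript.

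**Figure D4:**
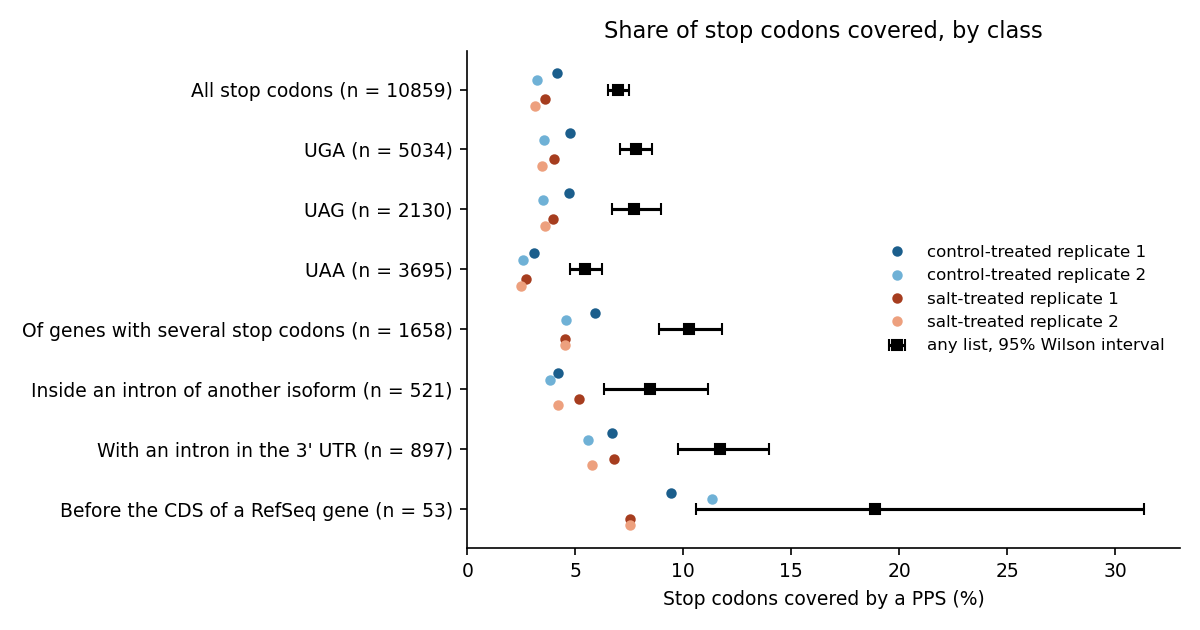
Share of stop codons covered by a PPS (x axis, %) for all stop codons and for 7 classes of them, with n beside each name. Black squares are the share covered in at least 1 list with its 95% Wilson interval, and coloured points are the 4 lists. UAA lies lowest at 5.47% and stop codons before the CDS of a RefSeq gene highest at 18.9%.

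Stop codons of short upstream coding sequences were among those covered. The table held 57 stop codons of genes with no RefSeq record of their own, and 53 of them lay inside a RefSeq gene of the same strand, ahead of its CDS. They are called upstream coding sequences here from this position, and their median CDS was 117 nt. Of the 53, 10 were covered (18.9%, interval 10.6 to 31.4), beside 7.00% of all stop codons. The control-treated lists covered 5 and 6 of them, and each salt-treated list 4. In 33 of the 53 transcripts an intron followed the stop codon and was counted above as one in the 3′ UTR, though the CDS of the RefSeq gene lies there. Without these upstream stop codons, 99 of 750 covered stop codons (13.2%) had an intron in the 3′ UTR, beside 13.8% with them. Their median share of bases scored was 92.3%, beside 90.3% for all stop codons. This class was singled out after its values were seen.

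Both upstream stop codons covered in all 4 lists lie in mRNAs of polyamine oxidases. AT2G43018 lies ahead of PAO2, and its UGA was covered in every list by the same dsRNase PPS of 58 nt at chr2:17891927-17891984, with a score of 14.76, on the strand of the transcript in 3 lists and on the other strand in salt-treated replicate 2. AT3G59052 lies ahead of PAO3, and its UGA was covered by a dsRNase PPS of 55 nt with a score of 9.55 in control-treated replicate 1 and both salt-treated lists, and of 58 nt with a score of 12.59 in control-treated replicate 2. These lay on the strand of the transcript in replicate 2 of each condition and on the other strand in replicate 1. AT3G02468 lies ahead of SAMDC, which makes decarboxylated S-adenosylmethionine for polyamine synthesis, and was covered in salt-treated replicate 2 alone, with a score of 5.86. That score was at or above those of only 7.09% of the PPSs of its list. All 3 have UGA as stop codon. They were picked from 10 covered upstream stop codons, and a link to polyamines was not tested. The upstream stop codons of AT5G15948, ahead of AT5G15950, and of AT5G64341, AT5G64342 and AT5G64343, ahead of SAC51, were covered in no list. AT1G70782, ahead of AT1G70780, was covered in both control-treated lists by an ssRNase PPS of 113 nt on the other strand with a score of 21.94.

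RNA around covered stop codons had a lower structure score than around other stop codons. The structure score is a log2 ratio of dsRNA to ssRNA reads of protein-free RNA, scaled to the mean of the transcript, so that a higher score means more double-stranded. It has 1 value per condition with the replicates merged, and so no replicate check. Averaged over 50 nt on each side of the CDS end, it was −0.16 in control-treated tissue at 753 covered stop codons and 0.00 at 9128 others. In salt-treated tissue it was −0.19 at 756 covered stop codons and −0.05 at 8719 others. The stop codons covered in all 4 lists had lower means still, −0.56 under control treatment (65 scored) and −0.51 under salt treatment (68 scored). The structure-only libraries entered both the PPS calls and the scores, so the difference is not independent of the calls.

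The difference between covered and other stop codons was also present among transcripts with a similar share of bases scored. In control-treated tissue the covered stop codons had the lower mean in all 5 classes, for example −0.16 beside 0.05 in the highest class. In salt-treated tissue they had the lower mean in 4 classes, and in the lowest class, with 21 covered stop codons, the means were −0.01 and −0.02. It was larger close to the stop codon. With 25 nt on each side, the difference was −0.24 in place of −0.16 under control treatment and −0.18 in place of −0.14 under salt treatment.

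In the position profile, other stop codons had their highest score in control-treated tissue at 2 nt before the CDS end (0.06), whereas the covered ones had their lowest at 2 nt after it (−0.27). In salt-treated tissue the covered stop codons had their lowest score 42 nt after the CDS end (−0.35). Farther into the 3′ UTR the order turned. From 51 to 100 nt after the CDS end, the covered stop codons had the higher mean score, −0.08 beside −0.13 in control-treated and −0.21 beside −0.28 in salt-treated tissue. At 65 nt after it, where the covered stop codons had their highest score under control treatment, the means were 0.03 and −0.14. At the last CDS base they were −0.26 and 0.05, a wider gap in the opposite direction. The score under the PPSs themselves averaged −0.34 over 838 PPSs of control-treated lists, beside −0.02 in the flank of the same length upstream and −0.17 in the flank downstream. Over 736 PPSs of salt-treated lists these means were −0.28, −0.08 and −0.25. In control-treated lists 19.9% and in salt-treated lists 22.7% of these PPSs scored above both flanks.

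**Figure D5:**
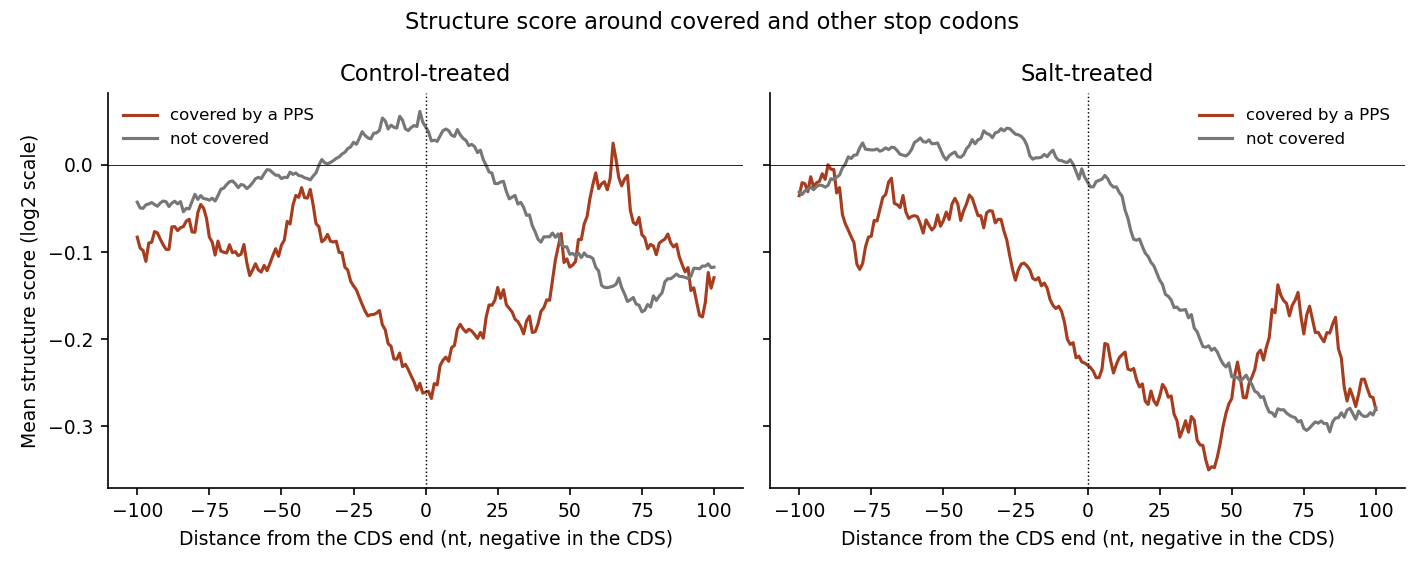
Mean structure score (y axis, log2 scale) at each position from 100 nt before to 100 nt after the CDS end in control-treated (left) and salt-treated (right) tissue, for 759 stop codons covered by a PPS of any list and 10071 others. The covered stop codons lie below the others at the CDS end in both, and above them from about 60 to 80 nt after it.

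Structure differences between the RNases were in the same direction in 3 of the 4 lists. Stop codons under dsRNase PPSs and those under ssRNase PPSs had mean scores, in the condition of the list, of −0.18 and −0.19 in control-treated replicate 1 and of −0.40 and −0.21 in control-treated replicate 2. They had −0.33 and −0.12 in salt-treated replicate 1, and −0.37 and −0.06 in salt-treated replicate 2. The mean was thus lower under dsRNase PPSs except in control-treated replicate 1, where the 2 differed little.

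Steps of 1 or more in the structure score between the conditions were less frequent at covered stop codons. With 1 merged score per condition, this is a description with no test. Among 750 covered stop codons scored in both conditions, 47 (6.27%) scored at least 1 higher in salt-treated tissue and 58 (7.73%) at least 1 lower, beside 15.7% and 18.6% of all 8999 and 16.6% and 19.6% of the 8249 not covered. Such steps were rarer in transcripts with more bases scored, where covered stop codons are frequent. Within the highest of the 5 classes of bases scored, 4.94% of 385 covered stop codons scored at least 1 higher and 8.31% at least 1 lower, beside 11.8% and 15.5% of 1759 others. The covered had the lower share in both directions in all 5 classes, with 16 covered stop codons in the lowest. Read depth within a class was not tested. The mean change was −0.03 at covered stop codons and −0.05 at others, and 49.7% of covered and 49.1% of all stop codons scored higher in salt-treated tissue. At the 80 stop codons covered in both control-treated lists alone the mean score went from −0.29 to −0.19, and at the 70 covered in both salt-treated lists alone from −0.04 to 0.03.

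Most covered stop codons were not covered in every list. Of 760, 267 were covered in 1 list, 277 in 2, 148 in 3 and 68 in all 4. Of the 68, 36 had the same start, end and score in all 4 lists, and 16 had a PPS on the strand of the transcript in all 4. There were 80 stop codons covered in both control-treated lists and no salt-treated list, and 70 in both salt-treated lists and no control-treated list. By the overlap of PPSs on either strand, 79 stop codon PPSs (8.01%) overlapped PPSs of both control-treated lists and no salt-treated list, and 55 (5.58%) the reverse. Among all distinct nuclear PPSs these shares were 7.67% and 6.34%, and among start codon PPSs 8.49% and 8.55%. PPSs of all 4 lists overlapped 196 stop codon PPSs (19.9%), beside 19.8% of all nuclear and 22% of start codon PPSs. Both control-treated lists overlapped 443 (44.9%), beside 43.7% and 47%, and both salt-treated lists 403 (40.9%), beside 38.3% and 41.4%. These shares lie near those of all nuclear PPSs.

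The genes below were named by a rule on the within-list rank of the score, which is given for each list as deposited. Where a PPS was joined from several calls, its highest score was used. Each stop codon is that of an annotated isoform, which need not be the main isoform of its gene. Among stop codons covered in all 4 lists, DTX35, an efflux carrier of the MATE family, ranked highest. Its UGA was covered in each list by a PPS of 121 nt at chr4:13076941-13077061 with a score of 47.77, the highest score of any stop codon PPS in each list. The PPS lay on the other strand than DTX35 in 3 lists and on its strand in salt-treated replicate 2. Of its bases, 109 lay before the CDS end and 12 after it. The structure score around it was 0.19 under control and −1.81 under salt treatment.

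WRKY15, a WRKY transcription factor, ranked second and had a score of 25.16 in all 4 lists, by a PPS of 171 nt in 3 lists and of 254 nt in salt-treated replicate 2, where it lay on the other strand. IGMT4, an O-methyltransferase family protein, had 23.54 and 25.16 in the control-treated and 25.16 and 19.37 in the salt-treated lists, with a PPS on the strand of the transcript in each. AT3G04210, a TIR-NBS resistance protein, had 18.73 in both control-treated lists and 13.69 in both salt-treated lists, on the other strand in salt-treated replicate 1. RLP19, a receptor-like protein, had 14.08 in 3 lists and 24.52 in salt-treated replicate 2, always on its strand. MLO2, a membrane protein that powdery mildew needs, had 11.70 in both control-treated and 23.60 in both salt-treated lists, on its strand in salt-treated replicate 2 alone. Since many calls are the same in several lists and their read depth is not in the files, scores were not compared between lists beyond these values.

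RD26 and ERD10 are known to be induced by drought and abscisic acid (ABA). RD26, a NAC transcription factor, had a score of 15.39 in every list, by a PPS of 101 nt in 3 lists and of 175 nt in control-treated replicate 1, on its strand in salt-treated replicate 2 alone, and most of the PPS lay in the 3′ UTR. Its structure score was −1.88 under control and −1.26 under salt treatment. ERD10, a dehydrin that protects other proteins when water is scarce, had 23.54 in both control-treated lists, 12.31 in salt-treated replicate 1 and 11.70 in salt-treated replicate 2. The PPS of ERD10 was 195 nt long in control-treated lists and 185 nt and 32 nt in salt-treated replicates 1 and 2, on its strand in the salt-treated lists alone, and 74.0% of the bases of its transcript were scored. Of the other genes that the rule named in this group, AT1G02475, AT4G13575 and AT2G02570 had scores from 11.38 to 20.94.

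Among stop codons covered in both control-treated lists alone, IAA2, a repressor of auxin response, ranked highest. The score of IAA2 was 23.03 in both lists, by an ssRNase PPS of 144 nt of which 3 nt lay before the CDS end, so that it lay almost wholly in the 3′ UTR, on the strand of the transcript. ERF11, a repressor of ethylene response genes, had 20.07 in both lists on the other strand, and CP5, a lipid transport family protein, had 19.36, the lowest of the 4 genes. AT1G70782, described above, ranked second. The structure score around the stop codon of CP5 was −1.49 under control and −1.28 under salt treatment.

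Among stop codons covered in both salt-treated lists alone, CAT3, a catalase that breaks down hydrogen peroxide, ranked highest. Its score was 32.93 in both lists, by an ssRNase PPS of 107 nt of which 105 nt lay after the CDS end. The isoform that ends at this stop codon has a CDS of 1284 nt and 1 intron in the 3′ UTR. Whether the covered bases are coding in another isoform was not tested. Another stop codon of CAT3, a UAG farther downstream with its last base at chr1:7146193, was covered in control-treated replicate 1 with a score of 8.20. Coverage of the gene was therefore not confined to salt-treated lists. PCAP1, a cation-binding protein of the plasma membrane, had 28.34 in both, with 194 of 205 nt before the CDS end. GRP-3, a glycine-rich protein, had 19.36 in both. In all 3 the salt-treated lists held the same call on opposite strands. AT5G60390, an elongation factor of the EF-Tu family, had 16.78 and 25.81, on the strand of the transcript in both. Near-identical copies of elongation factor, histone and light-harvesting genes exist, and their reads could be divided between copies.

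The longest stop codon PPS, of 333 nt, covered KIN2 in salt-treated replicate 2, with a score of 23.21 there and in control-treated replicate 1, where it was 166 nt long. KIN2 is a small protein induced by cold and ABA. Of the 333 nt, 316 lay before the CDS end, and since the CDS of KIN2 is 201 nt long, the PPS held bases outside its CDS exons. The next longest covered AT5G58720 (310 nt, salt-treated replicate 1), AT5G01750 (301 nt, salt-treated replicate 2) and AT1G56220 (299 nt, both control-treated lists).

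Genes of salt response and of light harvesting were covered at shares above that of the table, on small numbers. In the table as a whole, 7.20% of genes had a covered stop codon. Of 23 genes for salt, osmotic and ABA response in the table, 5 were covered (21.7%, interval 9.66 to 41.9), namely COR47, ERD10, HAB1, ABF4 and KIN2. Of 33 nuclear genes for photosystems and light harvesting, 7 were covered (21.2%, interval 10.7 to 37.8), namely PSBP-1, CAB1, PSAK, LHCB2.1, LHB1B2, LHCA1 and LHCA2. These gene lists were chosen with earlier results of these data known, so the shares only describe them. Genes of these lists are in part strongly expressed in leaves, and read coverage rises with expression, whose part was not tested.

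Within the first list, ABF4, a bZIP factor that binds ABA response elements, was covered in all 4 lists, with a score of 6.95 in both control-treated and 10.31 in both salt-treated lists. COR47, a dehydrin, had 17.35 in both control-treated lists and 8.20 in salt-treated replicate 1. HAB1, a phosphatase that holds ABA signalling off, was covered in control-treated replicate 1 alone with a score of 5.59. In the second list, LHCA1, an antenna protein of photosystem I, had 17.51 in both control-treated lists and 9.48 in salt-treated replicate 1. LHCB2.1, an antenna protein of photosystem II, had 7.00 in these same 3 lists. CAB1, another photosystem II antenna protein, had 16.78 in both salt-treated lists and was covered in no control-treated list, while LHB1B2 had 6.57 in both control-treated lists and was in no salt-treated list.

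Genes of ribosomal and RNA-binding proteins were covered at shares below that of the table, with intervals that include it. Of 150 genes whose RefSeq product names a ribosomal protein, 5 were covered (3.33%, interval 1.43 to 7.57). AT2G18110, named there for an EF1B and S6 family product, was the member covered in all 4 lists, with a score of 6.81 in each. AT2G34480 (L18ae) had 8.20 in 3 lists, and AT3G11510 (S11) had 7.27 in both control-treated lists. Of 150 genes whose product names RNA binding, 7 were covered (4.67%, interval 2.28 to 9.32). Among them SR34b, an SR splicing factor, was covered in all 4 lists, with a score of 8.14 in both control-treated and 18.95 in both salt-treated lists, and AT5G47210 had 10.95 in 3 lists.

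Of 25 DEAD-box RNA helicases 1 was covered, AT2G45810, with 7.00 in control-treated replicate 1 and salt-treated replicate 2. Of 20 histone genes 1 was covered, AT4G40040, with 17.35 in 3 lists and 6.21 in control-treated replicate 2. The stop codon of P5CS1, which makes the proline precursor and is named in the study, was in the table and was covered in no list. The structure score around it was −0.20 under control and −0.22 under salt treatment.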

How the data were processed

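Stop codon PPSs were taken from 4 deposited PPS lists, 1 per replicate. The authors trimmed reads, mapped them to TAIR10 (TopHat2 2.0.10 in the submitters' processing notes), collapsed duplicates, reduced the larger library of each pair with and without proteins to the size of the smaller, and used CSAR, in a modified form, to call PPSs (false discovery rate 5%). The score in column 5 of each list is the authors' deposited enrichment score. The structure tables hold another quantity for mRNAs with enough reads and at least 140 nt of 3′ UTR, which the authors made from both replicates merged, as a standardized log2 ratio scaled to the transcript mean. Neither kind gives read counts, so the reads behind each value are not known here.

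Samples were grouped by their titles. From the mRNA table, 685 transcripts without a CDS were left out and 14460 were kept. All of these begin with AUG and end in a stop codon in TAIR10.1. Window means needed 50% of bases scored. Of 10003 genes, 99.4% matched RefSeq. lncRNA tables were not used. Members, gene lists and named genes were chosen with earlier results of these data known. The genes named were the 12 with the highest mean score rank among stop codons covered in all 4 lists, 4 in control-treated and 4 in salt-treated lists alone, those of the 4 longest PPSs, up to 3 per gene list, and P5CS1. The result of a further gene list is not reported here. No test was run, and values are given per list. Alternatives changed the strand, PPS length and score, transcripts, overlap, window and lists. Steps were tested on simulated data. Python 3.11.15, numpy 2.4.6, scipy 1.17.1 and matplotlib 3.10.9 were used.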

Additional observations from a re-analysis of the deposited data

How the results depend on the processing

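Of 76 alternatives, 61 moved a result by less than the spread between lists or the counting interval, 13 moved it further and 2 turned its sign. For counts the limit was a factor of 1.5. For structure, the spread came from taking covered stop codons from each list of the condition alone, with the same merged score. It is therefore not a replicate spread of the score. The log2 ratio of stop codons covered (−0.14) turned to 0.30 with PPSs on the transcript strand only, was 0.060 without control-treated replicate 1, and ranged from −0.31 to 0.060 when each list was left out in turn. Keeping the higher-scoring PPSs of each list, those above its median, left 576 PPSs and 458 stop codons, a share of 1.66% and a median share before the CDS end of 66.0%. The share of PPSs over stop codons was 1.11% on the transcript strand, 1.22% with 1 transcript per gene and 0.962% with at least 10 nt on each side. Without calls that more than 1 list shared, an alternative added with the data in view, 514 PPSs and 432 stop codons were left. A window of 25 nt gave structure differences of −0.24 under control and −0.18 under salt treatment, and PPSs on the transcript strand gave −0.17 in salt-treated tissue. With 1 transcript per gene, 11.5% of covered stop codons had an intron in the 3′ UTR. Leaving out each list gave 837 to 881 PPSs, 675 to 709 stop codons, shares of 1.35% to 1.40% and median shares before the CDS end of 62.1% to 63.6%. Leaving out a list of the condition gave structure differences of −0.19 to −0.18 under control and −0.15 to −0.14 under salt treatment. No paired analysis was possible because the results come from no test and replicate numbers mark no shared origin. The files give no read counts, so a stop codon that was not covered may lack reads, and 2 lists per condition share many calls.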
